A study of Mus musculus with 8 samples.

Results

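Kinesins are motor proteins that use ATP to move along or take apart microtubules, and the 37 genes described here are the rows of the deposited gene table whose symbol is Kif followed by a number and an optional letter or digit, out of 21879 rows in all. Of these, 11 are mitotic kinesins, which build, centre and finally divide the spindle, and the other 26 include the motors that carry vesicles, organelles and ciliary cargo. Members named Kifc, Klc, Kifap3, Kif1bp or Cenpe fall outside that naming rule and are given only as neighbours of the family.

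RNA was sequenced from TCMK-1 cells, an established line of mouse kidney epithelial cells. The control group has the genotype label smgGDS control, with no word on what vector it carried, and the knockdown group has the genotype label smgGDS shRNA. smgGDS, the product of Rap1gds1, is a chaperone and exchange factor for small GTPases. All 8 libraries, 4 per group, came from cells given 20 µM cisplatin, a DNA-crosslinking drug, so both groups of this comparison are drug-treated. Saline-treated cells were not analysed here, and no value speaks of the drug itself. The labels name no clone, culture or day for the replicates, so each group may be a single shRNA line, and p-values measure the spread between these libraries, which may be technical.

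Library totals lay between 11560977 and 16059158 expected counts. Rap1gds1 itself was at 15.5 to 17.0 CPM (counts scaled to library size with TMM factors) in the controls and 2.36 to 2.80 CPM in the knockdown, so every library matched its label. Knockdown replicate 4 stood apart from the other libraries on the leading axis of variation. It was also the lowest library for each kinesin reported below as lower, and the highest for each reported as higher. Some values without it are given below. Markers of tubule epithelium were sparse: 8 of 16 passed the count filter, Hnf4a and Umod were at 0 in every library and the highest Cdh1 count was 5, while the water channel Aqp1 and the transcription factor Pax8 were measurable.

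Mitotic kinesins are made mainly in late S, G2 and M phase and then degraded, so their transcripts follow the share of dividing cells. In G2/M genes at large, transcription is known to depend on CCAAT boxes bound by NF-Y and on a cell cycle homology region. Transport kinesins act all through the cell cycle: kinesin-1 (Kif5 heavy chains with Klc light chains) moves vesicles and mitochondria outward, and kinesin-2 (Kif3a with Kif3b or Kif3c and the adaptor KAP3) moves cargo in cilia and cytoplasm. KAP3, the product of Kifap3, was also identified as a protein that binds smgGDS, which makes the kinesin-2 subunits of particular interest in this knockdown. In bulk RNA, fewer cells in mitosis and less transcript per cell cannot be told apart.

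Upstream sequences of 3 mitotic kinesins that fell and of 2 that were not called are shown so that windows of both kinds of member can be read side by side. The division is by the test's threshold only: Kif20b, not called, had about the same estimate as Kif22, and no difference between members was tested. They are from RefSeq on GRCm38.p6, run 5′ to 3′ on the gene's own strand, and were trimmed so that no more than 10 bases of an annotated exon remain. Capitals mark the box CCAAT, written ATTGG when it lies on the opposite strand. They also mark the letters searched for the cell cycle homology region, which were TTTGAA, its reverse complement TTCAAA, and the palindrome TTTAAA. Other forms of the region were not searched or marked, so a window without capitals may still hold one. Homology-region letters below mean only those searched. The homology-region letters of Kif22 lie outside the stretch shown.
Kif11 (chr19:37376232-37376381, plus strand, lower in the knockdown): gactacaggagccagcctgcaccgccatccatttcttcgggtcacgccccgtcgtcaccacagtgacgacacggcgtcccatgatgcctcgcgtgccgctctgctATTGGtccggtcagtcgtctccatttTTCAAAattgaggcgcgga
Kif18b (chr11:102925125-102925274, minus strand, lower in the knockdown): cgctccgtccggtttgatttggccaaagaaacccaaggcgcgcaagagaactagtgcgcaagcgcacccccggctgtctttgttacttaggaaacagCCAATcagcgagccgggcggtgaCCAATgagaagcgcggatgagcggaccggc
Kif22 (chr7:127042462-127042611, minus strand, lower in the knockdown): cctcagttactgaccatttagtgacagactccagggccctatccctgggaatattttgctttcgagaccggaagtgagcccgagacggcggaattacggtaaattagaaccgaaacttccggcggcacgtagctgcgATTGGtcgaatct
Kif20b (chr19:34922195-34922344, plus strand, not called): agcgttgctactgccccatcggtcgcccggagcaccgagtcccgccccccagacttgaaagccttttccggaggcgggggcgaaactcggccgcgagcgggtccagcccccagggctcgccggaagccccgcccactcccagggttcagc
Kif23 (chr9:61946801-61946950, minus strand, not called): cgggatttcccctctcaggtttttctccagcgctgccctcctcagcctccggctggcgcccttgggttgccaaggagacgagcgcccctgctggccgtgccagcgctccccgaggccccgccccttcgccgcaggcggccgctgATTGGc

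Over the full 250 bases before the RefSeq start, 10 mitotic kinesins had a window. Kif20a had none, so only 4 of those that fell were searched. Of the 10, 6 held the CCAAT box on either strand and 5 held the homology-region letters. Of all 32851 windows of the same length in the table, 33.8% held the CCAAT box and 25.2% held the homology-region letters. The 2 motifs can overlap by 1 base. Among the mitotic kinesins that fell, Kif11 held ATTGG from 45 and TTCAAA from 19 bases before the start, Kif22 held ATTGG from 54 and TTCAAA from 17 bases before it, and Kif18b held CCAAT from 53 and from 30 bases before it with no homology-region letters. Kif2c, which also fell, held TTCAAA from 103 and TTTAAA from 234 bases before the start but no CCAAT box. Kif4, Kif14 and Kif23, which were not called, did hold the CCAAT box. By call, 3 of the 4 that fell and 3 of the 6 not called held the CCAAT box. For the homology-region letters it was 3 of 4 and 2 of 6, and neither difference was tested. Kif14 and Kif15, whose transcripts were not called, also held homology-region letters, from 42 and 19 bases before the start. Both held them again farther out, from 228 and 234 bases, so both motifs were found in members of both kinds. Among 25 windows of the other kinesins, 9 held the CCAAT box and 3 held the homology-region letters. The starts used for Kif2c and Kif14 lie 3852 and 1547 bases inside the gene's RefSeq span, so their windows may not be the main promoter. The Kif22 start lies 47 bases inside its span, so its TTCAAA from 17 lies within the annotated gene. A second TTCAAA of Kif22, from 215 bases before the start, lies outside it. The bases just after the starts of Kif2c, Kif11 and Kif23 were not found in transcripts of another gene annotation, GENCODE. A match is a description of letters, not of a bound site.

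Per transcript length, Kif20a was the most abundant kinesin. In the deposited FPKM, a level scaled to transcript length and library size, it stood at 186 ± 3.67 in controls (SD, n = 4), ahead of Kif5b at 39.95 ± 1.94, Kif22 at 29.0 ± 1.91, Kif1c at 21.4 ± 1.03 and Kif2c at 18.0 ± 1.25. Kif20a alone took 44.2% to 45.8% of all kinesin counts in the controls and 40.9% to 43.9% in the knockdown. This level carries a limit: exons of Kif20a share 1271 bases with Cdc23 on the opposite strand, strand use in counting is not given, and its counts were not all whole, so some reads may belong to the neighbour. Cdc23 itself averaged 62.7 CPM over the control libraries and 62.6 over the others and was not called, with an edgeR adjusted p of 0.993.

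**Figure D1:**
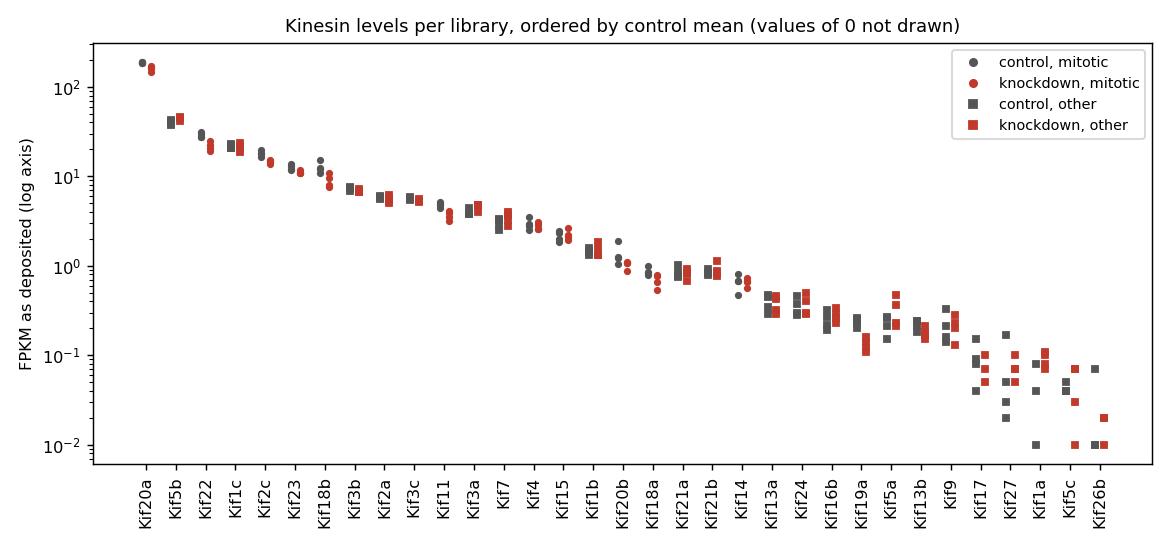
Deposited FPKM of each kinesin in each library on a log axis, genes ordered by control mean, circles for mitotic and squares for other kinesins, grey for control and red for knockdown. Kif20a lies near 186 in controls, well above Kif5b at 39.95, and the lowest genes drawn are under 0.1.

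Several mitotic kinesins fell, each by a small amount. Of the 11, all were measurable. At an edgeR quasi-likelihood adjusted p (Benjamini-Hochberg) under 0.05, 5 fell and none rose. Of all 11576 tested genes, 9.15% fell and 11.1% rose. With only 11 members, the lack of rises is not read as a result. The median log2 fold change, knockdown minus control, was -0.25 over the 11 against -0.00 over all tested genes. Negative estimates numbered 9 of 11, against 5903 of 11576 over all tested genes. Without control replicate 2 the median over the 11 was -0.15, without knockdown replicate 3 it was -0.18, and without knockdown replicate 4 it was -0.22. For rises, DESeq2 and limma voom also called 0, and 0 had an unadjusted p under 0.05 in that direction. The 5 that fell were Kif22, Kif20a, Kif2c, Kif11 and Kif18b, and their decreases ran from 9.85% to 26.7%. Each of these 5 passed in all 18 alternative analyses except Kif18b, which missed a stricter threshold of 0.01. With 1 library left out, estimates ran from -0.43 to -0.30 for Kif22 and from -0.17 to -0.11 for Kif20a. They ran from -0.28 to -0.20 for Kif2c, -0.39 to -0.27 for Kif11 and -0.55 to -0.36 for Kif18b.

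Kif22, a chromokinesin that pushes chromosome arms toward the spindle equator, was at 55.9, 56.0, 60.7 and 64.7 CPM in control replicates 1 to 4 and at 47.1, 43.4, 53.2 and 41.1 CPM in knockdown replicates 1 to 4. Every knockdown library was below every control library, with knockdown replicate 3 the nearest. Groups without overlap, in either direction, were found in 21.1% of all tested genes, a share to set beside each such gene below. An antisense gene, Gm31749, shares 96 exon bases with Kif22. The log2 fold change was -0.36 (SE 0.06, edgeR adjusted p = 9.57e-05).

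Kif20a, which brings the chromosomal passenger complex to the midzone for cytokinesis, was at 650, 634, 633 and 628 CPM in the controls and 603, 581, 581 and 531 CPM in the knockdown. The groups did not overlap, and knockdown replicate 4 was the lowest. Its log2 fold change was -0.15 (SE 0.03, edgeR adjusted p = 0.000358), the smallest of the 5, and -0.11 without knockdown replicate 4, still past the threshold.

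Kif2c, a microtubule depolymerase that corrects faulty attachments at centromeres, was at 54.2, 49.7, 46.1 and 49.6 CPM in the controls and 42.7, 43.9, 42.1 and 39.6 CPM in the knockdown. All knockdown libraries again lay below all controls. The log2 fold change was -0.25 (SE 0.06, edgeR adjusted p = 0.00168).

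Kif11, the motor that slides spindle poles apart and the target of many antimitotic compounds, was at 23.0, 24.1, 22.5 and 21.2 CPM in the controls. In the knockdown it was at 20.3, 19.0, 17.2 and 15.8 CPM, again without overlap. The log2 fold change was -0.33 (SE 0.08, edgeR adjusted p = 0.00389). Some Kif11 counts were not whole.

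Kif18b, which shortens astral microtubules and helps centre the spindle, was at 40.9, 48.8, 39.8 and 36.3 CPM in the controls and 27.5, 36.5, 32.4 and 25.7 CPM in the knockdown. Here the groups touched, as knockdown replicate 2 lay just above control replicate 4. Its log2 fold change of -0.45 (SE 0.11, edgeR adjusted p = 0.0168) was the largest decrease among the mitotic members. Over the alternatives its adjusted p ran from 1.89e-09 to 0.0497.

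**Figure D2:**
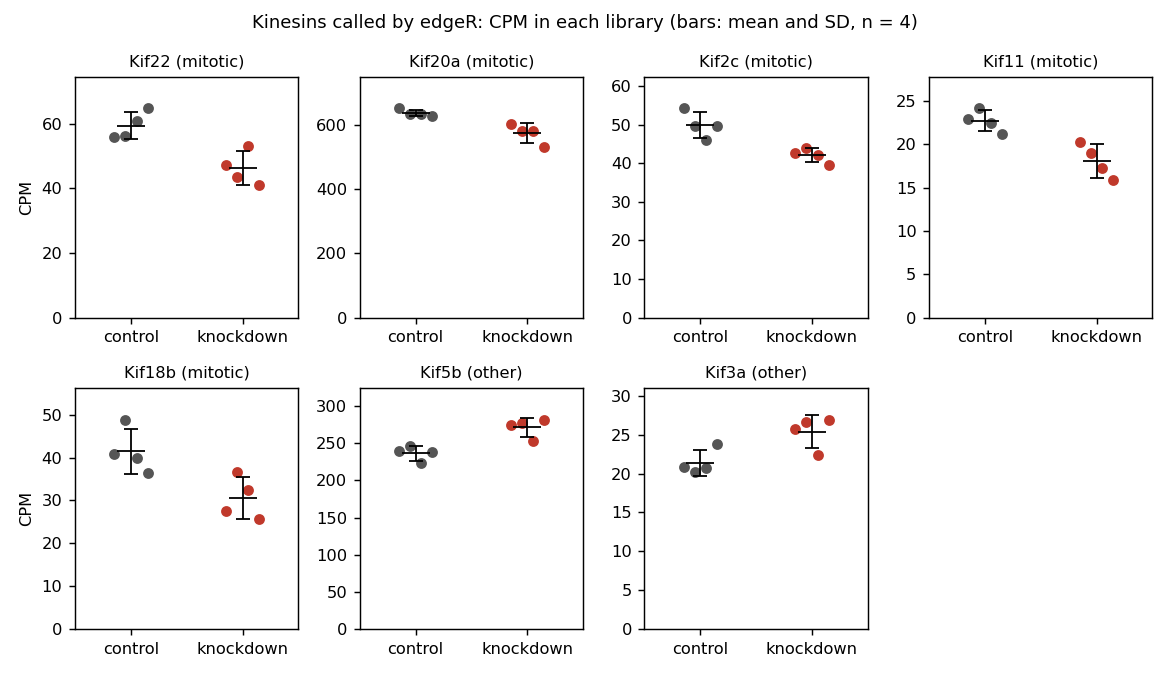
CPM of the 7 called kinesins in each library, control in grey and knockdown in red, with bars for mean and SD (n = 4), each axis starting at 0. In Kif22, Kif20a, Kif2c and Kif11 all knockdown points lie below the controls, in Kif5b all lie above them, and in Kif18b and Kif3a the groups touch. Of all tested genes, 21.1% had groups without overlap in either direction.

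The 6 other mitotic kinesins did not pass. Kif20b, a relative of Kif20a that acts late in cytokinesis, was at 6.46, 9.47, 6.14 and 5.39 CPM in the controls and 4.71, 5.66, 6.01 and 5.35 CPM in the knockdown. Its estimate of -0.36 (SE 0.15, edgeR adjusted p = 0.0958) leaned on control replicate 2, the high library, without which it was -0.15. It was called without control replicate 4 (adjusted p = 0.0439) and under library-total scaling (adjusted p = 0.0462), and its adjusted p ran up to 0.57 over the alternatives. Kif23, the centralspindlin motor, was at 41.9, 43.6, 38.4 and 37.5 CPM in the controls and 36.0, 38.8, 36.3 and 36.9 CPM in the knockdown, an estimate of -0.13 with SE 0.06 and edgeR adjusted p = 0.144. The Kif23 groups overlapped, and it was called in 1 alternative, library-total scaling.

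Kif18a, which dampens chromosome oscillation at the metaphase plate, was low, at 2.71, 3.26, 2.58 and 2.82 CPM in the controls and 2.71, 2.199, 1.84 and 2.64 CPM in the knockdown. With 23 to 54 counts per library its 95% interval of -0.71 to 0.16 (log2) includes changes as large as those of the 5 that fell. Kif4, a chromokinesin that limits midzone microtubule growth with Prc1, was at 11.9, 14.7, 10.7 and 13.3 CPM against 11.1, 10.9, 12.5 and 12.9 CPM (interval -0.32 to 0.12). Exons of Kif4 share 832 bases with Pdzd11 on the opposite strand.

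Kif15, which can back up Kif11 in spindle assembly, was at 8.68, 10.3, 7.82 and 10.4 CPM in the controls and 9.49, 10.8, 9.53 and 8.47 CPM in the knockdown. Its groups overlapped throughout, and its interval was -0.19 to 0.29, while the difference from Kif11 was not tested. Kif14, which recruits citron kinase to the midbody, was at 4.68, 5.31, 3.56 and 4.36 CPM and 4.42, 3.85, 4.33 and 5.59 CPM (interval -0.33 to 0.35), again with overlap. The sign of Kif14 and Kif15 turned under some alternatives, so neither has a direction.

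The summed level of the 11 mitotic kinesins was 871 to 901 CPM per control library and 725 to 809 CPM per knockdown library. Most of this is Kif20a. Without it the sums were 238 to 265 and 194 to 215 CPM, so the groups stayed apart and knockdown replicate 4 was the lowest in both sums. The mitotic share of all kinesin counts was 62.4% to 63.2% in the controls and 55.9% to 59.5% in the knockdown.

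**Figure D3:**
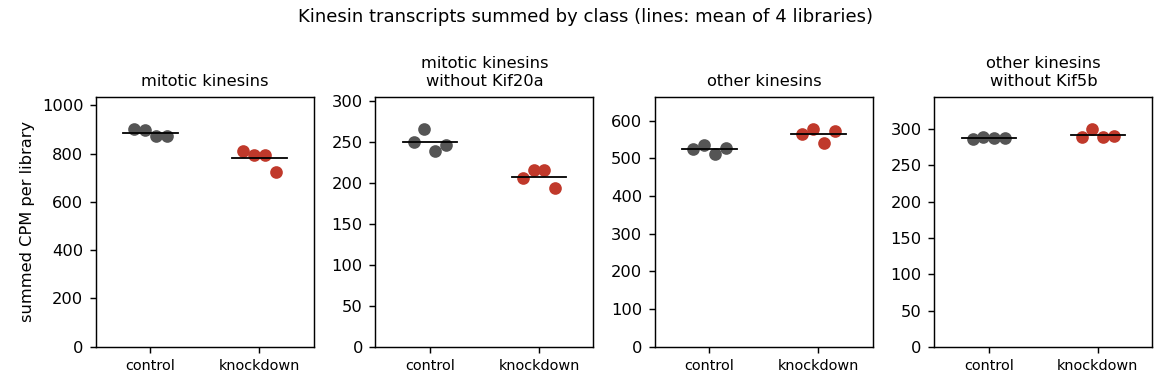
Summed CPM of mitotic and other kinesins in each library, with and without the most abundant member of each class, lines at the mean of 4 libraries, axes starting at 0. The mitotic sums are lower in every knockdown library with or without Kif20a, whereas the difference of the other kinesins is carried by Kif5b.

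Among the other 26 kinesins, 15 passed the count filter, 2 rose and none fell. Of all tested genes, 11.1% rose and 9.15% fell. The share of the 15 that rose, 13.3%, is near that background, so it is not a result about the other kinesins as a class. With only 15 members, the lack of falls is not read as a result either. Their median log2 fold change was 0.13, which became 0.07 under library-total scaling. Without knockdown replicate 4, when the filter passed 16 members instead of 15, the median was 0.00. For falls, DESeq2 and limma voom also called 0, and 0 had an unadjusted p under 0.05 in that direction. The 2 that rose were Kif5b and Kif3a.

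Kif5b, the widely expressed kinesin-1 heavy chain, was at 239, 246, 223 and 238 CPM in the controls and 274, 277, 253 and 282 CPM in the knockdown. Every knockdown library was above every control library, a lack of overlap found in either direction in 21.1% of all tested genes. The estimate was 0.20 on the log2 scale with SE 0.04 and edgeR adjusted p = 4.03e-05, a rise of 14.8%, and it passed in all 18 alternatives with estimates of 0.14 to 0.23. Some of its counts were not whole, and its exons share 142 and 182 bases with the antisense genes Gm17036 and AC113003.1. Without Kif5b, the summed level of the other kinesins was 286 to 290 CPM in controls and 289 to 300 CPM in the knockdown.

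The remaining kinesin-1 heavy chains were scarce. Kif5a, a mainly neuronal form, was at 1.27 ± 0.338 and 1.71 ± 0.646 CPM (control and knockdown, SD, n = 4) and was not called (edgeR adjusted p = 0.335), and the highest Kif5c count was 6. Of the light chains that link Kif5 to cargo, Klc1 averaged 55.8 ± 2.16 CPM (SD, n = 4) in control and 65.9 ± 1.84 CPM under knockdown, without overlap, a rise of 0.24 on the log2 scale with SE 0.05 and edgeR adjusted p = 0.000391. Klc2 was at 42.1 ± 3.12 and 42.0 ± 1.70 CPM (95% interval of the log2 fold change -0.13 to 0.12). The difference between Klc1 and Klc2 was not tested.

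Kif3a, the shared motor subunit of kinesin-2, was at 20.9, 20.2, 20.7 and 23.9 CPM in the controls and 25.8, 26.6, 22.3 and 26.9 CPM in the knockdown. Control replicate 4 and knockdown replicate 3 cross, and the rest are apart. Its log2 fold change was 0.25 (SE 0.08, edgeR adjusted p = 0.0181), and this call was not stable. It was lost without control replicate 1 (adjusted p = 0.0532), control replicate 2 (0.0583), knockdown replicate 2 (0.0549) or knockdown replicate 4 (0.0622), and also at a threshold of 0.01, under library-total scaling (0.0661) and on FPKM (0.185). The lowest adjusted p over the alternatives was 0.00612.

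Partners of Kif3a were not called. Kif3b was at 40.3 ± 1.85 and 39.3 ± 1.49 CPM, with an interval of -0.16 to 0.09 on the log2 scale. Kif3c was at 37.6 ± 0.803 and 37.5 ± 1.23 CPM, with an interval of -0.13 to 0.12, and its exons share 2617 bases with an antisense gene, 1110002L01Rik. Kifap3, whose product binds smgGDS, was low at 3.12 ± 0.475 and 3.11 ± 0.413 CPM, with an estimate of -0.02, SE 0.19 and edgeR adjusted p = 0.974, and its interval of -0.41 to 0.38 leaves room for changes in either direction. Kif17, the homodimeric ciliary kinesin-2, had at most 7 counts.

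**Figure D4:**
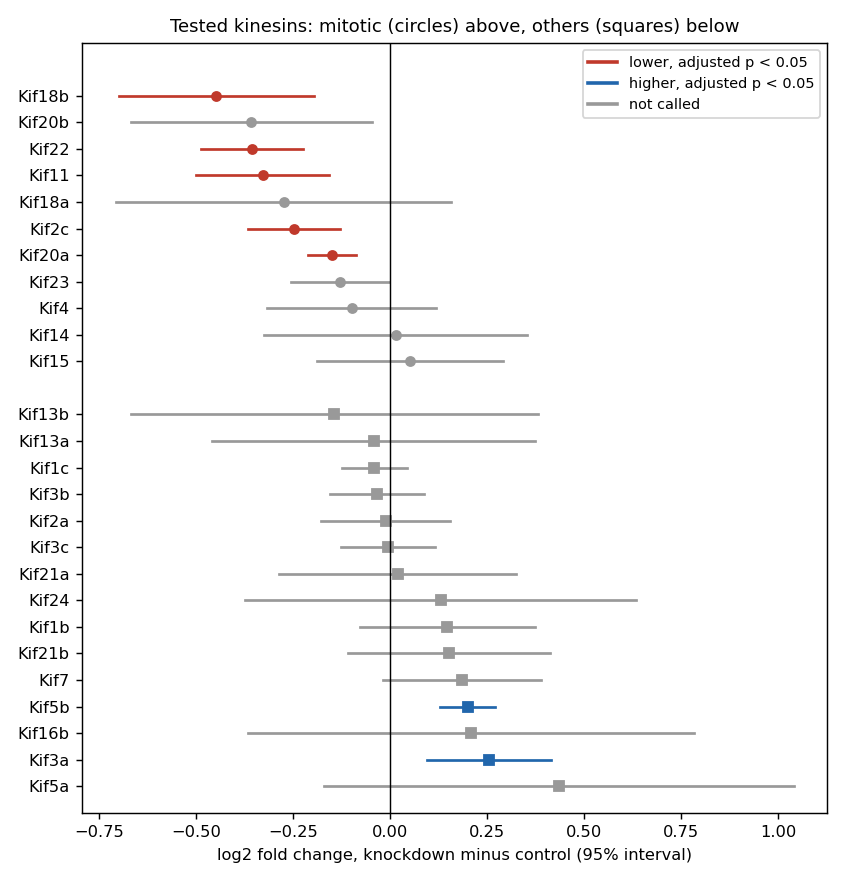
Log2 fold change, knockdown minus control, with 95% interval for the 26 tested kinesins, mitotic members above as circles and others below as squares, red for lower, blue for higher and grey for not called. Among the mitotic members 9 of 11 estimates lie left of 0, against 5903 of all 11576 tested genes, and the intervals widen for genes with few counts.

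Kinesin-3 motors, long-range carriers of vesicles and organelles, showed no call. Kif1c, the most abundant of them, was at 118 ± 1.43 and 115 ± 6.83 CPM (interval -0.13 to 0.04), and its difference from Kif5b was not tested. Kif1b was at 11.2 ± 0.897 and 12.4 ± 2.09 CPM, where knockdown replicate 4 was high at 15.3 CPM. Kif13a was at 3.15 ± 0.599 and 3.08 ± 0.746 CPM, Kif13b at 1.76 ± 0.131 and 1.58 ± 0.220 CPM, and Kif16b at 1.38 ± 0.338 and 1.57 ± 0.316 CPM. Kinesin-4 relatives outside mitosis were not called either: Kif7, a regulator of Hedgehog signalling at the tip of the cilium, was at 13.2 ± 1.43 and 15.04 ± 1.58 CPM (0.19 on the log2 scale, SE 0.10), and its exons share 877 bases with the antisense gene 9330171B17Rik. Kif21a and Kif21b, which restrain microtubule growth, were at 5.19 ± 0.619 and 5.30 ± 0.694 CPM and at 7.52 ± 0.553 and 8.33 ± 1.47 CPM. Kif2a, the depolymerase closest to Kif2c, was at 21.1 ± 1.304 and 20.9 ± 1.75 CPM (interval -0.18 to 0.15), and its exons share 1229 bases with Dimt1 on the opposite strand. Kif24, a centriolar depolymerase, was at 1.86 ± 0.346 and 2.06 ± 0.431 CPM.

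The 11 other kinesins that did not pass the filter had at most 14 counts in any library. Kif19a, a ciliary depolymerase, had 10 to 14 counts in the controls and 5 to 7 in the knockdown, and when tested with no count filter it was not called (edgeR adjusted p = 0.357). With no filter, none of the 9 that had any count was called, the lowest adjusted p being 0.0748 for Kif1a. Kif12 and Kif2b were at 0 in all libraries, which allows up to 3 counts, or 0.187 to 0.259 CPM, per library, counting error only.

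Among partners of the mitotic kinesins more fell than rose. Of 18 genes that bind, recruit or mark the same structures, 9 fell and 2 rose, with a median log2 fold change of -0.15 against -0.00 over all tested genes. Of all tested genes 9.15% fell and 11.1% rose, so the share of partners that rose, 11.1%, is the background share. Incenp, the scaffold of the passenger complex that Kif20a carries, fell by 0.37 (log2, SE 0.06), and its kinase Aurkb fell by 0.31 (SE 0.06), while Birc5 of the same complex was at 137 and 135 CPM and was not called. The spindle pole kinase Aurka fell by 0.21 (SE 0.04) and Mki67, a proliferation marker, fell by 0.19 (SE 0.03). Racgap1, which pairs with Kif23 in centralspindlin, fell by 0.18 (SE 0.03), and Prc1, which recruits Kif4, fell by 0.13 (SE 0.04). Kntc1, a kinetochore protein, rose by 0.32 (SE 0.06) and the cytokinesis scaffold Anln rose by 0.15 (SE 0.05). The number that rose was 1 without replicates 1 or 3 of the controls or 1 or 4 of the knockdown, under library-total scaling and on FPKM. The summed level of these 18, Mki67 included, was 1613 to 1683 CPM in the controls and 1485 to 1543 CPM in the knockdown; its part in the lower kinesin transcripts was not tested.

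Of 12 further kinesin-related genes outside the naming rule, 2 fell and 1, Klc1, rose, or 16.7% and 8.33% against 9.15% and 11.1% of all tested genes. The 2 were Kifc1 and Kifc5b, near-identical copies of the minus-end spindle motor that clusters centrosomes, whose counts were not all whole. Because reads may be split between the copies, their sum is the safer value, at 134 ± 7.38 CPM for control and 102 ± 8.26 CPM for knockdown libraries (SD, n = 4), and the groups did not overlap. Separately, Kifc1 gave -0.42 (SE 0.05, edgeR adjusted p = 1.34e-07) and Kifc5b -0.35 (SE 0.06). Cenpe, the kinetochore kinesin that moves chromosomes to the plate, was at 23.8 ± 2.14 and 23.4 ± 2.30 CPM and was not called, with an interval of -0.19 to 0.14.

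Among 15 tested adaptors that link kinesins to cargo, 4 rose and 1 fell, or 26.7% and 6.67% against 11.1% and 9.15% of all tested genes, with a median log2 fold change of 0.07. Arl8a, a lysosomal GTPase that recruits kinesin-1, fell by 0.27 on the log2 scale (SE 0.06, edgeR adjusted p = 0.00042). Ktn1, the kinesin receptor kinectin of the endoplasmic reticulum, rose by 0.22 (SE 0.06, edgeR adjusted p = 0.00364), and the JNK scaffolds Spag9 and Mapk8ip3 rose by 0.25 (SE 0.08) and 0.10 (SE 0.04). The number that rose was 1 without replicates 1 or 2 of the controls or 4 of the knockdown, and under library-total scaling, 2 without control replicate 3 and with DESeq2, and 0 on FPKM.

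Dynein is the motor that runs the opposite way, with dynactin as its activator. Of 29 tested dynein and dynactin genes 5 rose and 3 fell, or 17.2% and 10.3% against 11.1% and 9.15% of all tested genes, so the share that fell is near the background. Their median log2 fold change was 0.03. Dync1h1, the heavy chain, averaged 861 ± 28.3 CPM in control and 1009.7 ± 37.1 CPM in knockdown libraries (SD, n = 4), a rise of 0.23 on the log2 scale with SE 0.03 and edgeR adjusted p = 9.35e-08, and the intermediate chain Dync1i2 rose by 0.16 (SE 0.05). The falls were in Nde1 (-0.26), Actr1a (-0.13) and Spdl1 (-0.22); Nde1 and Spdl1 act with dynein at kinetochores in mitosis. The number that rose was 2 without replicates 1 or 3 of the controls or 4 of the knockdown, 3 without knockdown replicate 3, and 1 under library-total scaling and on FPKM.

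**Figure D5:**
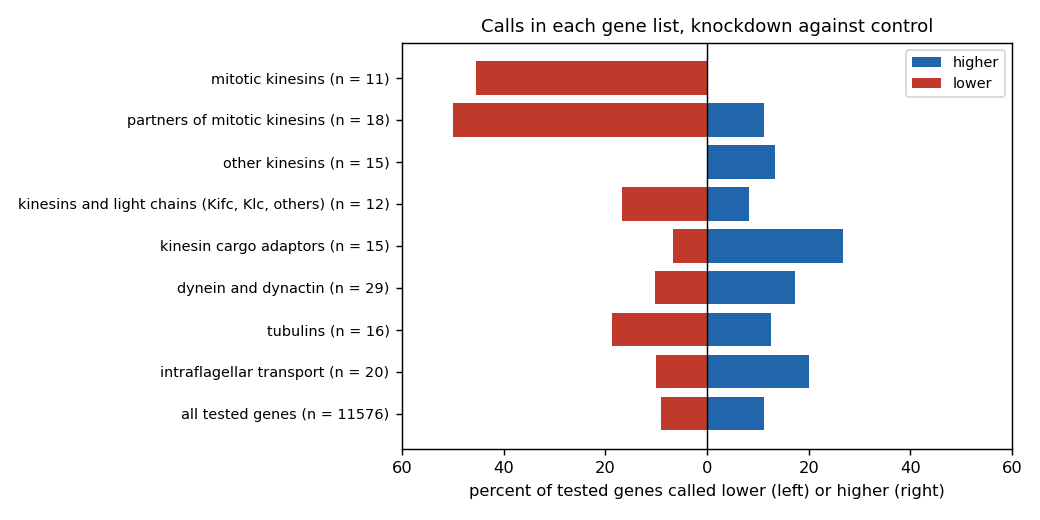
Percent of tested genes in each list that were called lower (left, red) or higher (right, blue), with the number tested beside each name and all tested genes at the bottom. Mitotic kinesins and their partners extend furthest left (45.5% for the former), against 9.15% of all tested genes.

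Markers of other cell types differed between the same groups. Of 6 tested fibroblast and pericyte markers 5 rose, against 11.1% of all tested genes, with a summed level of 330 to 360 CPM in controls and 399.9 to 458 CPM in the knockdown for the list of 8, most of it Col1a1, and Col3a1, Col1a2, Col1a1 and Dcn were higher by 0.54, 0.43, 0.23 and 0.49 (log2). The leukocyte list of 8 stood at 130 to 140 CPM in the controls and 112 to 123 CPM in the knockdown. Of 3 tested, Cd14 changed by -0.36 (log2) and was called. Cd68, at means of 59.0 CPM in control and 56.0 CPM in knockdown, and Csf1r were not called. That is 33.3% lower, against 9.15% of all tested genes. Adgre1 and Cd3e were at 0 and Ptprc at 1 count at most. Of 8 tested tubule markers Aqp1 fell by 0.29 (log2) and 7 were not called, with estimates from -0.68 for Krt18 to 0.39 for Lrp2. The share that fell, 12.5%, is near the 9.15% of all tested genes. The endothelial list of 7 stood at 7.61 to 9.84 and 12.0 to 14.0 CPM, all but Flt1 at 6 counts or fewer. Flt1, the only member tested, was called higher, by 0.60 (log2). The part of these markers in the kinesin results was not tested.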

How the data were processed

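The authors deposited 1 table holding expected counts, some of them fractional, beside FPKM for each gene, per the file headers. The submitters' processing notes name RSEM, edgeR, DESeq2, StringTie 1.3.1, HISAT2 2.4, Bowtie2 2.2.8 and fastp 0.18.0, without roles, and build GRCm38.p6. Neither the strand setting nor the annotation release is given in the sources used here. The labels' protocols name oligo(dT) beads for mRNA enrichment.

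Counts were rounded to whole numbers (6.52% of values were not whole, tolerance 1e-09) and then analysed in edgeR 4.0.16 under R 4.3.3: default expression filter, TMM factors, robust quasi-likelihood fit on group, two-sided F-test, Benjamini-Hochberg adjustment over 11576 genes, threshold 0.05. The fit used all 8 libraries. Standard errors come from the fold change and F statistic, and intervals cover 95%. Low-count genes left by the filter have no p. The procedure was tested on simulated data. Replicates differed by more than counting noise (chi-square per degree of freedom 1.92 to 3.81).

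Named genes are Rap1gds1, every tested kinesin, Kifap3, Klc1, Klc2, Cenpe, and up to 4 called members per list by adjusted p; other names were added after their values were seen. The members and lists were chosen with earlier results of these data known. The 18 alternatives were 3 other scalings, limma 3.58.1 (voom, and log2(FPKM + 0.5) of the deposited FPKM), DESeq2 1.42.0, 2 filters, the replicate number as a term, omission of single libraries and the threshold 0.01. Promoter windows matched 31 of the 37 kinesins by gene identifier.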

Additional observations from a re-analysis of the deposited data

How the results depend on the processing

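The 5 mitotic kinesins and Kif5b kept their direction and their call in all 18 alternatives, except Kif18b at the 0.01 threshold. The number of other kinesins that rose was 1 instead of 2 under library-total scaling, on FPKM and at 0.01, and 1 to 2 when 1 library was left out, since Kif3a was lost. Over all genes, 766 rose and 1951 fell under library-total scaling, 598 rose and 1508 fell on FPKM, and 825 rose and 580 fell at 0.01, against 1285 and 1059. Library-total scaling and FPKM moved the median of all genes to -0.06 and -0.05 on the log2 scale. Among the kinesins, Kifap3, Klc2 and Cenpe, signs turned only in genes that were not called. Under library-total scaling Kif15 was -0.0059, Kif14 was -0.043 and Kif21a was -0.038, and on FPKM Kif21a was -0.037. With 1 library left out, estimates ran from -0.022 to 0.11 for Kif15, -0.099 to 0.11 for Kif14, -0.052 to 0.10 for Kif21a, -0.15 to 0.081 for Kif13a, -0.069 to 0.032 for Kif2a and -0.028 to 0.011 for Kif3c. Outside the family they ran from -0.11 to 0.054 for Kifap3, -0.046 to 0.027 for Klc2 and -0.081 to 0.037 for Cenpe. The causes were not tested. Same-numbered libraries correlated at -0.04 to 0.08 in their deviations, and differently numbered ones at -0.06 to 0.04. Of 8 libraries, 6 correlated best with their own number. These values do not settle whether the numbers pair the libraries, and the main fit left them unpaired. With the replicate block 1425 genes rose and 1235 fell, and 5 mitotic kinesins fell and 2 others rose. Depth limits Kif18a, Kif5a, Kif13b, Kif16b and Kif24, whose intervals span both directions.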

Other observations

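Tubulins, the subunits of the track that kinesins run on, numbered 16 tested, of which 2 rose and 3 fell, or 12.5% and 18.8% against 11.1% and 9.15% of all tested genes. The share that rose is near the background. Tubb4b, a widely expressed beta-tubulin, averaged 516 ± 19.9 CPM in control and 454 ± 27.5 CPM in knockdown libraries (SD, n = 4), and this fall of -0.18 on the log2 scale had SE 0.04 and edgeR adjusted p = 0.00021, while Tuba1a went from 1210.2 ± 48.9 to 1314 ± 26.3 CPM (0.12, SE 0.03) and was not called under library-total scaling or on FPKM. Tuba1a and Tubb2b (0.24) have counts that are not all whole and close copies in the genome, so they are less certain. Tuba8, a minor form, was at 2.19 and 0.932 CPM and fell by 1.24 (SE 0.30). Under library-total scaling 1 tubulin rose and 5 fell. The summed level was 6025 to 6200 CPM in controls and 6140 to 6406 CPM in the knockdown, so the groups overlapped.

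Intraflagellar transport genes, which encode the cargo train that kinesin-2 moves along the cilium, numbered 20, all tested, of which 4 rose and 2 fell, or 20.0% and 10.0% against 11.1% and 9.15% of all tested genes. The share that fell is near the background. Ift43 rose by 0.49 (SE 0.10, edgeR adjusted p = 0.000172) and Ift172 rose by 0.28 (SE 0.08), while Ift46 fell by 0.23 (SE 0.05) and Ift27 fell by 0.38 (SE 0.09), all on the log2 scale. On FPKM 2 rose, and Ift172 was not called. The summed level was 271 to 291 CPM in controls and 285 to 292 CPM in the knockdown.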
